A study of Mus musculus with 2 samples.

Results

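The mitochondrial ribosomal protein genes encode the proteins that the cell nucleus contributes to the ribosome inside mitochondria. They were chosen by annotation: every gene of the deposited gene tables that GENCODE annotates as protein-coding and whose symbol begins with Mrpl or Mrps followed by a number. The rule gave 77 genes among 21474 protein-coding genes and 43346 mouse genes, 48 with an Mrpl symbol (large subunit) and 29 with an Mrps symbol (small subunit). No expression value entered the choice.

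The genes were measured by total RNA sequencing of hearts taken from B6NCrl mouse embryos at 11.5 days of development, a stage of early chamber formation. There was 1 group, of 2 libraries, which the labels number as replicates 1 and 2. Replicate 1 came from the pooled hearts of 109 embryos and replicate 2 from a pool whose size is not stated. Both pools mixed males and females, are described as healthy, and have biosample records of their own that name a common donor identifier, so the spread between them is that of pools and not of single embryos. Each library was made from 10 ng of RNA. No treatment or mutant was included, so levels, their order and the match between the pools are the comparisons that the design allows.

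Mitochondria carry a small genome of their own, and the mitochondrial ribosome translates its mRNAs, all of which encode subunits of the respiratory chain and the ATP synthase. Its rRNAs are made inside the organelle, while every protein of the ribosome is made in the cytosol and imported. Compared with bacterial ribosomes it has lost RNA and gained proteins, so its proteins fall into those with a bacterial counterpart and those found only in mitochondria. The heart depends on this ribosome because adult cardiac muscle draws most of its ATP from respiration, and in humans variants of several of these genes, MRPL3 and MRPL44 among them, cause cardiomyopathy.

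Expected counts (reads assigned to each gene by the authors' quantification) summed to 37617442 in replicate 1 and 27642765 in replicate 2. The 77 genes took 0.510% of the reads of mouse genes in replicate 1 and 0.490% in replicate 2, between 586 and 6109.8 counts per gene in replicate 1 and between 377 and 4123 in replicate 2. The labelled tissue was checked against marker genes. All 6 cardiomyocyte markers (Tnnt2, Actc1, Myh6, Myh7, Myl7 and Nkx2-5) were detected, with summed TPM (abundance corrected for transcript length and scaled to a fixed sum) of 19799 in replicate 1 and 21494 in replicate 2. The 4 erythroid markers summed to more, 38832 TPM in replicate 1 and 32310.1 in replicate 2. Markers of endothelium and epicardium were detected as well, as were all 4 hepatic markers, with summed TPM of 178 in replicate 1 and 32.9 in replicate 2, and all 3 neuronal markers, with 18.9 in replicate 1 and 19.2 in replicate 2. In a whole tissue, fewer cells of a type and less RNA per cell cannot be told apart.

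Nuclear genes of mitochondrial proteins are known targets of the transcription factors NRF1 and GABPA, an ETS family factor, and of YY1. RefSeq promoter sequences (250 bases before to 50 after the annotated start, GRCm38.p6, the same assembly as mm10) were available for 68 of the 77 genes. The exact letters CCGGAAGT, the core that ETS factors bind, stood on either strand in 11 of the 68 (16.2%), against 9.27% of 9544 detected protein-coding genes and 5.99% of all 16317 protein-coding genes with an entry. The letters AAGATGGCG, a YY1 motif, stood on either strand in 8 members (11.8%), against 3.69% of detected genes and 2.27% of all. The letters GCATGCGC of NRF1 stood on either strand in 7 members (10.3%), against 6.17% of detected genes and 4.14% of all. At least 1 of these 3 motifs was found in 25 of the 68 members, and only Mrps27 had 2 of them. The share of other genes with at least 1 of the 3 was not computed, so this count has no background. Each line below gives a stretch of such a promoter from RefSeq, 5′ to 3′ on the strand of the gene, to show where the letters lie and that they occur in members at either end of the range of levels. Capitals mark the motifs (CGCCATCTT, ACTTCCGG and GCGCATGC are their letters on the other strand).
Mrpl42, chr10:95501903-95501932, minus strand: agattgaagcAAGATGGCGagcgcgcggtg
Mrpl35, chr6:71823742-71823771, minus strand: ggcaggctgcAAGATGGCGgcttccatctt
Mrpl37, chr4:107066821-107066850, minus strand: tgcacgggcaAAGATGGCGgcgtccaggta
Mrps18a, chr17:46110995-46111033, plus strand: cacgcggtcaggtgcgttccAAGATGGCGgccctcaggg
Mrps11, chr7:78783003-78783051, plus strand: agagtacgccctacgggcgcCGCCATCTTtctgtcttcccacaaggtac
Mrps27, chr13:99344686-99344815, plus strand: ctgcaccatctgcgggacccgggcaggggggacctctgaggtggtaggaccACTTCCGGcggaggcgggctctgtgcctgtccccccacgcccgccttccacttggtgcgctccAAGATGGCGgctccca
Mrpl3, chr9:105053229-105053276, plus strand: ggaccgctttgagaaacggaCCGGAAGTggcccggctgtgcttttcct
Mrpl51, chr6:125192090-125192137, plus strand: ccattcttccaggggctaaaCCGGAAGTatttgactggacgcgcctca
Mrpl52, chr14:54426890-54426937, plus strand: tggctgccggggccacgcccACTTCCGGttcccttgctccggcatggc
Mrps26, chr2:130563722-130563769, plus strand: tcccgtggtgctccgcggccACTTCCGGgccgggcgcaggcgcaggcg
Mrpl17, chr7:105811071-105811118, minus strand: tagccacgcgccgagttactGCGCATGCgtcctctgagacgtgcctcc
Mrpl32, chr13:14613032-14613079, minus strand: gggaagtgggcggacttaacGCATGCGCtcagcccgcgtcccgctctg

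The YY1 letters lay just after the annotated start in 6 of the 8 genes, beginning at base 12 in Mrps18a, 15 in Mrps27, 24 in Mrpl35, 27 in Mrpl37, 28 in Mrpl42 and 37 in Mrps24, counted from 1 at the start. In Mrpl36 and Mrps11 they lay before it and on the other strand. The ETS letters began 19 bases before the start in Mrpl3, 90 before it in Mrpl51, 15 before it in Mrps26 and at base 2 after it in Mrpl52. The letters did not separate high from low members: Mrpl42, the highest gene, and Mrpl35, the second lowest, both have the YY1 letters a short way into the transcript. Members with any of the 3 motifs had a median of 83.7 ± 0.926 TPM and members with none 74.5 ± 2.4 (SD over the 2 libraries), but with GC added before the NRF1 letters and after the YY1 letters the medians were 82.5 ± 1.8 for 18 members and 80.8 ± 1.16 for the other 50. The SP1 letters GGGCGG stood in 34 of the 68 members (50%), against 70.5% of detected genes and 51.4% of all. CCAAT stood in 38.2% of members, against 43.4% of detected genes and 42.0% of all, and the TATA letters TATAAA in 7.35%, against 8.60% and 14.1%. A match of letters is a description and not evidence of binding. The 9 members with no entry are Mrpl13, Mrpl15, Mrpl19, Mrpl38, Mrpl4, Mrpl54, Mrps28, Mrps34 and Mrps35.

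All 77 genes were expressed, and at high and similar levels. Each had at least 1 TPM in both libraries, where 56.4% of protein-coding genes did, and each also had at least 5 TPM, where 43.7% did. At 20 TPM or more in both libraries were 75 members (23.4% of protein-coding genes), at 50 or more 60 members (10.8%), at 100 or more 25 members (5.38%) and at 200 or more 2 members (2.59%). The median member had 83.8 TPM in replicate 1 and 81.4 in replicate 2, 82.6 ± 1.69 over both (SD, n = 2), a level above that of 93.2% of protein-coding genes. The median of all detected protein-coding genes was 15.9 ± 0.396 TPM. The members also lay close together: the 10th and 90th percentiles of their mean TPM were 2.05 apart on the log2 scale, against 5.23 for all detected protein-coding genes. Together they made up 0.726% of all TPM in replicate 1 and 0.725% in replicate 2.

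**Figure D1:**
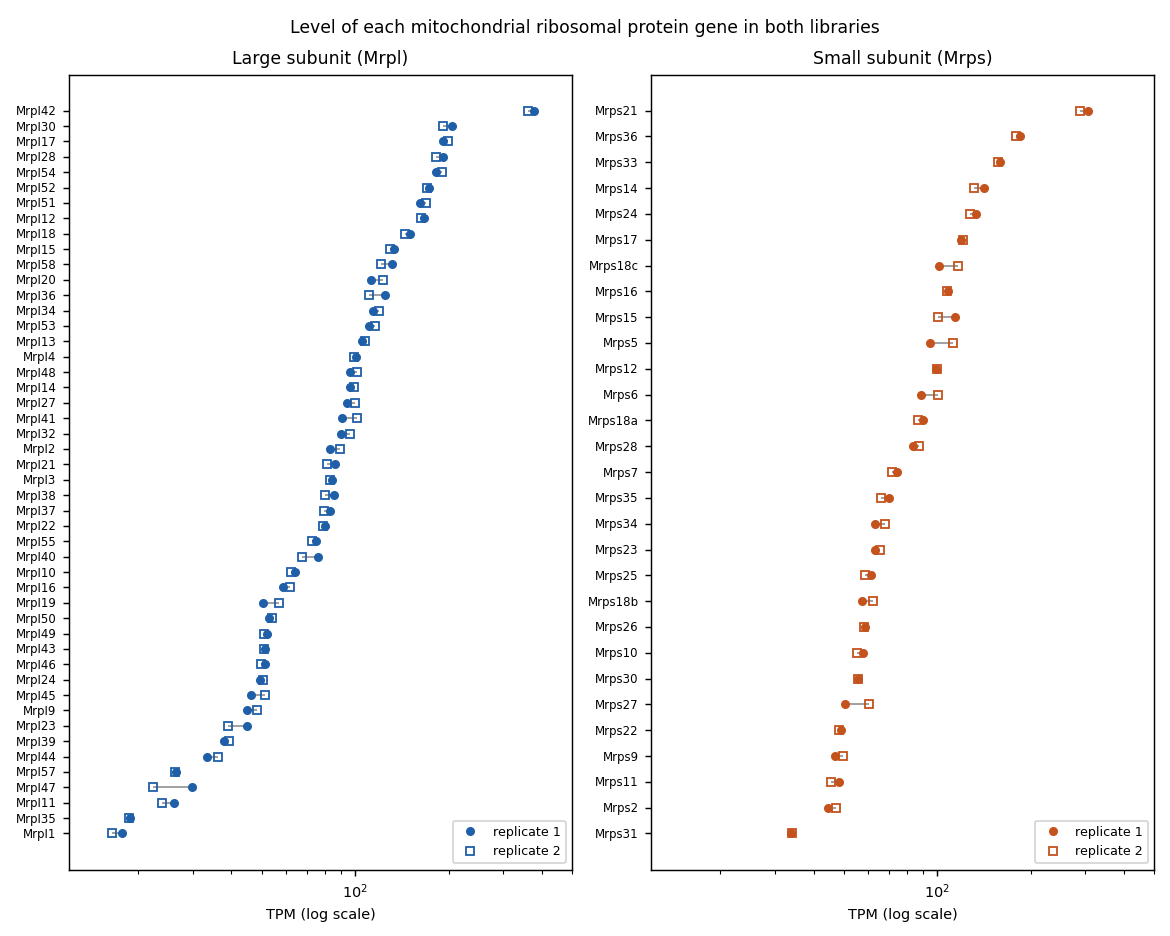
TPM (log axis) of each gene in replicate 1 (filled circles) and replicate 2 (open squares), with a grey line between them, for the large subunit at left and the small subunit at right, ordered by mean. The levels run from 17.1 TPM on average for Mrpl1 to 369 for Mrpl42, and the symbols of a gene lie close together compared with that range.

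The highest members were 2 genes with short transcripts and of different origin. Mrpl42, on chr10:95480805-95501940, encodes the large-subunit protein mL42, which has no bacterial counterpart, and had 378 TPM in replicate 1 and 361 in replicate 2. Mrps21, on chr3:95862634-95871519, encodes bS21m of the small subunit, the counterpart of bacterial S21, and had 306 TPM in replicate 1 and 288 in replicate 2. Mrpl42 stood above Mrps21 in both libraries, by 0.31 ± 0.02 on the log2 scale of TPM, and both stood above the third by mean level, Mrpl30 (the large-subunit protein uL30m), with 205 and 192 TPM in replicates 1 and 2.

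Below them the order was close. Mrpl17, for a protein that in bacteria lies at the exit of the peptide tunnel, had 192 TPM in replicate 1 and 199 in replicate 2. Mrpl28, for bL28m, had 192 TPM in replicate 1 and 182 in replicate 2. Mrpl54, for the mitochondria-specific mL54, had 182 TPM in replicate 1 and 190.2 in replicate 2, and Mrps36 184 TPM in replicate 1 and 179 in replicate 2. The order of Mrpl30, Mrpl17, Mrpl28, Mrpl54 and Mrps36 differed between the libraries. Despite the symbol of Mrps36, structural work places its protein not in the ribosome but in the 2-oxoglutarate dehydrogenase complex of the citric acid cycle. The top 10 were completed by Mrpl52 (173 and 170.2 TPM in replicates 1 and 2), Mrpl51 (161 and 169) and Mrpl12 (167 and 163). Mrpl52 and Mrpl51 encode mitochondria-specific proteins of the large subunit. Only 5 neighbours in the order of all 77 genes had intervals in the deposited tables that stood apart in both libraries: Mrpl42 above Mrps21, Mrps21 above Mrpl30, Mrpl18 above Mrps14, Mrps31 above Mrpl57 and Mrpl11 above Mrpl35. The level of those intervals is not stated in the files.

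Of the 10 lowest members, 8 had an Mrpl symbol, as had 8 of the 10 highest. Mrpl1, on chr5:96209493-96266727, encodes uL1m, the protein of the mobile stalk that in bacteria releases used tRNA, and had the lowest level, 17.7 TPM in replicate 1 and 16.5 in replicate 2. Mrpl35, for bL35m, had 18.9 TPM in replicate 1 and 18.7 in replicate 2. Mrpl11 had 26.0 TPM in replicate 1 and 24.0 in replicate 2. Next came Mrpl47 (uL29m) with 29.8 and 22.3 TPM in replicates 1 and 2, and Mrpl57 (mL63) with 26.5 and 26.2. The other 5 of the lowest 10 were Mrps31 (33.8 and 34.1), Mrpl44 (33.4 and 36.3), Mrpl39 (37.9 and 39.2), Mrpl23 (44.8 and 38.9) and Mrps2 (44.6 and 47.2), of which Mrpl23 has an uncertain level because of a pseudogene copy. Mrpl1 lay 4.43 ± 0.03 below Mrpl42 on the log2 scale of TPM, a 21.6-fold range, yet it was still above 72.9% of protein-coding genes.

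Some proteins that work side by side had mRNAs at opposite ends of the order in TPM. The pairs were built from those ends, so a difference within each was fixed by the choice. Mrpl12 and Mrpl17 came from the 10 highest members and Mrpl11 and Mrpl47 from the 10 lowest. Mrpl12 encodes the flexible stalk protein that recruits translation factors to the ribosome and Mrpl11 the stalk base, and their TPM was 167 for Mrpl12 and 26.0 for Mrpl11 in replicate 1, and 163 and 24.0 in replicate 2. Mrpl10, chosen after its values were seen because its protein anchors that stalk, lay between them with 64.2 TPM in replicate 1 and 62.0 in replicate 2. Mrpl47, whose bacterial counterpart lies at the tunnel exit as that of Mrpl17 does, was among the 10 lowest while Mrpl17 was the fourth highest by mean level. Expected counts lay closer together, with 5561 for Mrpl12 and 2068 for Mrpl11 in replicate 1, and 3822 and 1345 in replicate 2. Mrpl17 had 2674 counts in replicate 1 and 1916 in replicate 2, and Mrpl47 1093 and 729.

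Length went with level. Gene length in the files could differ between the libraries: for Mrpl47 it was 1385 bases in replicate 1 and 1718 in replicate 2. The mean of both was used. Across the 77 genes, Spearman's rho between gene length in the files and mean TPM was -0.73, whereas rho between length and mean expected count was 0.16; both are descriptions, and TPM itself contains the division by length. The 10 highest members had a median length of 636 bases, the 10 lowest 2102, and all members 959, against 2496 for detected protein-coding genes. Before the division by length the range was narrower, with the highest count 10.4 times the lowest in replicate 1 and 10.9 times in replicate 2, against 21.3 and 21.9 times for TPM. The lowest count was that of Mrpl23, which has a near-identical pseudogene copy, and without it the range of counts was 5.59 times in replicate 1 (down to Mrpl47) and 5.85 times in replicate 2 (down to Mrps11). Mrpl42 exceeded Mrpl1 by 4.72-fold in counts, where it did so by 21.6-fold in TPM.

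**Figure D2:**
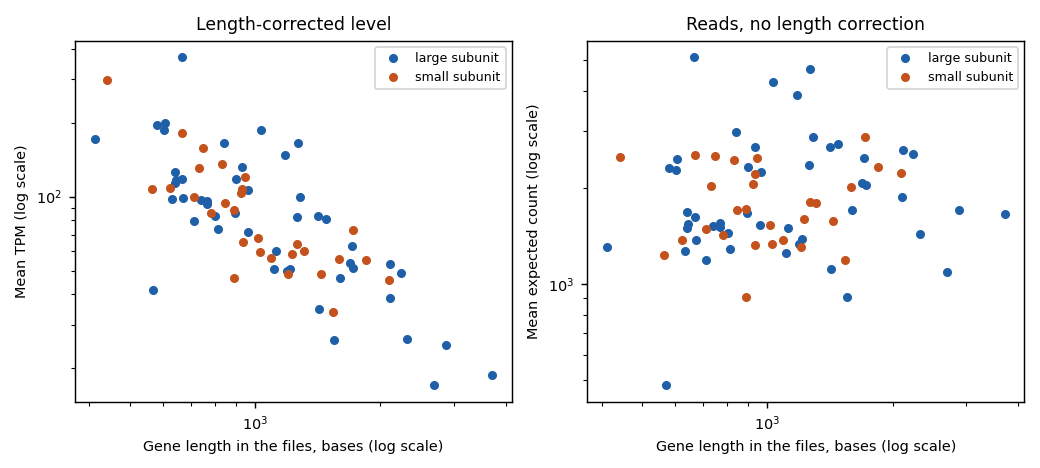
Gene length in the files (log axis, bases) against mean TPM at left and mean expected count at right (log axes), 1 point per gene, coloured by subunit. Level falls with length in TPM (rho -0.73) and shows little relation in counts (rho 0.16).

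The subunits were expressed at nearly the same level. The 48 Mrpl genes had a median of 84.9 TPM in replicate 1 and 82.2 in replicate 2, against 74.4 and 71.4 for the 29 Mrps genes, a difference of 0.20 ± 0.01 on the log2 scale. With Mrps18a and Mrps30 moved to the large subunit, where structures place their proteins (mL66 and mL65), and Mrps36 left out, the difference was 0.24 in each library. In CPM (counts scaled to library size alone, without division by length) it turned round, to -0.04 ± 0.02, so which subunit is higher depends on the length correction. The median member of the large subunit lay between Mrpl21 (86.1 TPM in replicate 1, 81.4 in replicate 2) and Mrpl3 (84.3 and 83.0). Mrpl21 encodes bL21m and Mrpl3 encodes uL3m, a protein close to the peptidyl transferase centre in bacteria. The median of the small subunit was Mrps7, for uS7m, which in bacteria contacts tRNA, with 74.4 TPM in replicate 1 and 71.4 in replicate 2.

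Members with a bacterial counterpart were higher in TPM than mitochondria-specific ones. The classes follow the universal names of the proteins. Mrps18a (mL66) and Mrps18b (mS40) were therefore counted as mitochondria-specific, although their proteins descend from bacterial S18. The difference without them was not computed. The 45 genes with a counterpart had a median of 90.0 TPM in replicate 1 and 99.4 in replicate 2, against 62.9 and 65.2 for the 31 mitochondria-specific genes, a difference of 0.56 ± 0.06 on the log2 scale. In the small subunit the difference was 0.70 ± 0.02, with 16 genes at 98.7 ± 2.62 TPM and 10 at 60.5 ± 0.866. In the large subunit it was 0.11 ± 0.08, with 29 genes at 87.6 ± 2.15 TPM and 21 at 81.4 ± 2.67. In CPM the difference over all members was 0.01 ± 0.09, within the spread of the libraries. The highest mitochondria-specific gene of the small subunit was Mrps33, with 159 TPM in replicate 1 and 157 in replicate 2, and was chosen after its values were seen.

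The genes of the Mrps18 family encode 3 different proteins that in mammals descend from bacterial S18. Mrps18c (bS18m, in the place of bacterial S18) had 101 TPM in replicate 1 and 117 in replicate 2. Mrps18a (mL66, in the large subunit) had 90.1 TPM in replicate 1 and 86.9 in replicate 2, and Mrps18b (mS40, elsewhere in the small subunit) 57.1 and 62.0. Their order was the same in both libraries, with Mrps18c above Mrps18b by 0.87 ± 0.06 on the log2 scale of TPM, Mrps18a above Mrps18b by 0.57 ± 0.12, and Mrps18c above Mrps18a by 0.29 ± 0.19. In counts Mrps18c exceeded Mrps18b by only 0.05 ± 0.05 and was below Mrps18a by 0.30 ± 0.18 (log2 ratio -0.30), so their order too rests on the length correction. Mrps30, for mL65 of the large subunit, had 55.4 TPM in replicate 1 and 55.6 in replicate 2.

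Other parts of the mitochondrial translation system were compared by lists of their genes, chosen with earlier results of these data known. The 5 subunits with other symbols were at the level of the members, with a median of 90.0 ± 0.474 TPM: Chchd1 (mS37) had 172 TPM in replicate 1 and 167 in replicate 2, Dap3 (the GTP-binding mS29) 110 and 108, Aurkaip1 (mS38) 89.7 and 90.4, and the lowest, Gadd45gip1 (mL64), 38.7 and 38.2. The other lists of the system had lower medians in TPM, a measure that divides by length. The median expected count of the members was 1957 in replicate 1 and 1378 in replicate 2. It was 1283 and 963 for translation factors, 927 and 630 for assembly factors, and 1220 and 929 for synthetases. For mitochondrial RNA genes it was 1347 and 1019. Genes of membrane insertion and activation had 2367 and 1640, above the members. The 10 translation factors measured, of 11 listed, had a median of 23.4 ± 0.898 TPM. Tufm, the elongation factor that brings tRNA, had 120.0 TPM in replicate 1 and 136 in replicate 2, Gfm1, the translocase, 70.0 and 90.1, Tsfm, the exchange factor of Tufm, 71.6 and 67.7, and the release factor Mtrf1 6.92 and 9.40. All 10 were detected, and only Tufm was above the median member in TPM in both libraries.

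The 21 assembly and rRNA modification factors had a median of 19.5 ± 0.587 TPM. Fastkd2, an RNA-binding protein of the mitochondrial RNA granule, led with 47.0 TPM in replicate 1 and 44.1 in replicate 2, followed by Rbfa (38.9 and 41.3), a small-subunit assembly factor, and Malsu1 (38.5 and 36.6), which binds the immature large subunit. The lowest was the rRNA methyltransferase gene Mrm1 with 9.58 TPM in replicate 1 and 9.89 in replicate 2. All 21 lay below the median member in TPM. The 17 mitochondrial aminoacyl-tRNA synthetases, which charge the tRNAs, had a median of 16.9 ± 1.76 TPM, from 2.93 in replicate 1 and 2.88 in replicate 2 for Mars2 to 40.3 and 41.6 for Rars2 and 32.2 and 29.2 for Yars2. Lars2 stood apart from them with 801 TPM in replicate 1 and 710.4 in replicate 2, all in its only listed transcript, and the source of those reads was not tested.

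Of 12 listed genes that make and keep mitochondrial RNA, 11 were measured, with a median of 20.9 ± 2.33 TPM. The highest were Slirp (213 TPM in replicate 1, 189 in replicate 2), its partner in stabilising mitochondrial mRNAs Lrpprc (45.9 and 53.5), and, between them, Hsd17b10 (131 and 137), a subunit of mitochondrial RNase P. The lowest was Mterf1b with 1.77 TPM in replicate 1 and 1.94 in replicate 2. Of the 5 genes for insertion of new proteins into the membrane and for translational activation, Coa3 (139 and 135) and Cox20 (132 and 129), both of cytochrome oxidase assembly, were above the median member, while the insertase gene Oxa1l had 34.1 and 33.4 TPM in replicates 1 and 2 and Taco1, an activator of cytochrome oxidase translation, 8.09 and 7.15. The 2 rRNAs of the ribosome, mt-Rnr1 and mt-Rnr2, had 961 and 3133 TPM in replicate 1 and 654 and 2270.0 in replicate 2, so both were lower in replicate 2 while the members' share of TPM differed little.

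The members were far below the families they are most often set beside. Their median of 82.6 ± 1.69 TPM compares with 512 ± 36.1 for 76 cytosolic ribosomal protein genes, which lay 2.63 ± 0.07 higher on the log2 scale (6.19-fold; 2.08 ± 0.06 in CPM). The highest of those were Rpl41 (1964 TPM in replicate 1, 1861 in replicate 2), Rps19 (1188 and 1147) and Rpl32 (1159 and 1057), and the lowest Rpl5 (52.5 and 41.1). The 82 nuclear genes of the respiratory chain and the ATP synthase, whose products join those made by the mitochondrial ribosome, had a median of 414 ± 9.6 TPM, 2.33 ± 0.06 above the members (5.02-fold). Their highest were Atp5b (3384 and 3686), Cox6b1 (1509 and 1586) and Atp5g3 (1507 and 1517), and Cox8c was listed at 0 in both libraries. The 10th and 90th percentiles were 2.35 apart on the log2 scale for cytosolic ribosomal proteins and 2.92 for the respiratory chain, against 2.05 for the members. Narrower spreads were found within the same system, 1.56 for the assembly factors and 1.43 for the 5 subunits with other symbols. Cytosolic ribosomal protein genes have many pseudogene copies, and how the authors' model divided such reads was not tested.

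**Figure D3:**
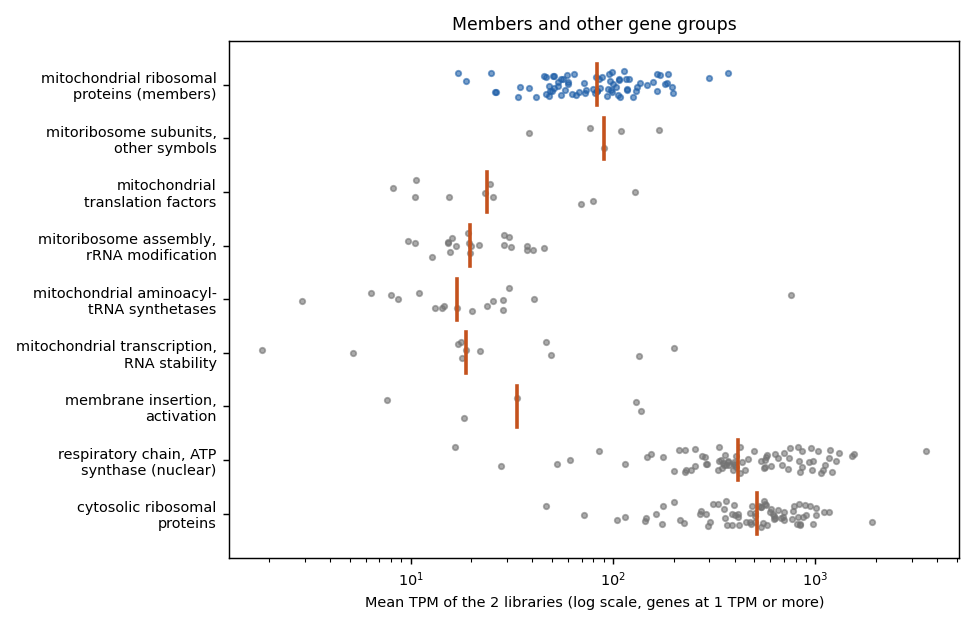
Mean TPM of both libraries (log axis) for each gene at 1 TPM or more, by list, with the members on top in blue, the other lists in grey and the median of each list as an orange bar. The members (median 82.6) lie above translation factors (23.4), assembly factors (19.5) and synthetases (16.9), and below respiratory chain genes (414) and cytosolic ribosomal proteins (512).

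The nuclear regulators that act on genes of this kind were all below the median member in TPM. Nrf1 had 32.6 TPM in replicate 1 and 29.4 in replicate 2, and the coactivator genes Pprc1 33.6 and 27.1 and Ppargc1a 28.5 and 32.1. The lowest of the 10 listed was the nuclear receptor gene Esrrb with 1.16 TPM in replicate 1 and 1.15 in replicate 2. The median of the list was 26.1 ± 1.17 TPM, a level above that of 80.3% of protein-coding genes. Its median expected count was 2044.5 in replicate 1 and 1491.5 in replicate 2, against 1957 and 1378 for the members.

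The transcript tables split each gene's TPM over its annotated transcripts. Of the 77 genes, 19 had a single transcript with a row and 58 had several, and in 56 of the 58 both libraries had the same transcript in the lead (96.6%, against 89.4% of detected protein-coding genes with several transcripts). The leading transcript was annotated as protein-coding in both libraries in 62 of the 77 genes (80.5%), against 91.6% of all detected protein-coding genes. By share of TPM, among genes with several transcripts, the contrast depended on the measure. Transcripts not annotated protein-coding held a median of 6.59% in the members and 7.40% in all detected genes, but a mean of 23.9% and 17.1%. They held over 25% in 29.3% of the members and 25.8% of all. The other 15 were Mrpl3, Mrpl13, Mrpl15, Mrpl19, Mrpl20 (in replicate 1 only), Mrpl23, Mrpl32, Mrpl47, Mrpl48, Mrpl51, Mrps11, Mrps14, Mrps24, Mrps25 and Mrps26. In Mrps26, for the small-subunit protein mS26, a transcript annotated with a retained intron held 94.7% of TPM in replicate 1 and 94.8% in replicate 2. In Mrps24 (uS3m) such a transcript held 74.2% and 74.3%, and in Mrps25 (mS25) 68.6% and 67.3%. Transcripts annotated for nonsense-mediated decay led in Mrps14 (90.0% and 90.6%), Mrpl3 (69.6% and 69.0%), Mrpl13 (59.3% and 61.8%), Mrps11 (47.2% and 57.5%) and Mrpl48 (47.0% and 44.4%). Noncoding transcripts annotated as processed transcripts led in Mrpl15 (55.3% and 55.3%), Mrpl51 (50.2% and 52.6%), Mrpl19 (49.3% and 52.4%), Mrpl47 (69.5% and 56.7%) and Mrpl23 (83.4% and 69.4%), and in replicate 1 in Mrpl20 (49.2%, with 45.3% in replicate 2). In Mrpl51 a transcript annotated with a retained intron held a further 43.95% in replicate 1 and 42.04% in replicate 2. Mrps5, chosen after its values were seen, was led by a coding transcript but had 58.2% and 60.6% in retained-intron transcripts. The values of both libraries were close except in Mrpl47, Mrpl23 and Mrps11.

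The annotation behind these shares comes from 2 releases. Types were read from GENCODE M21, while the transcripts quantified were those of release M4, and in 8 of the 15 genes the leading transcript has another version number in M21. Among the 36 members whose leading transcript has the same version in both releases, it was annotated protein-coding in 29 (80.6%), against 89.8% of 3505 detected genes. In Mrpl32 the only transcript with a row is now annotated for nonsense-mediated decay, and the coding transcript of M21 has no row. In all 14 of the other genes the coding transcript with a consensus coding sequence had a row and was longer than the leading transcript, with a median of 2870.0 bases against 715. The same held for 774 of 963 such genes among all detected protein-coding genes (80.4%), with medians of 3682 and 1392 bases. For Mrpl3 it was 3972 bases against 1394, with 2.01% of TPM in replicate 1 and 3.47% in replicate 2, and for Mrps26 4278 bases against 1057, with 5.30% and 5.17%. Mrpl17, chosen after its values were seen, was led by a coding transcript of 459 bases. This held 60.1% of TPM in replicate 1 and 58.9% in replicate 2. The Mrpl17 transcript with a consensus coding sequence had 3848 bases and held 3.29% and 3.14%. Whether the leading RNAs are processed as their annotation says was not tested. Of the 22 members that overlap a detected gene on the other strand, 16 had a coding transcript in the lead (72.7%), as had 46 of the 55 others (83.6%).

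**Figure D4:**
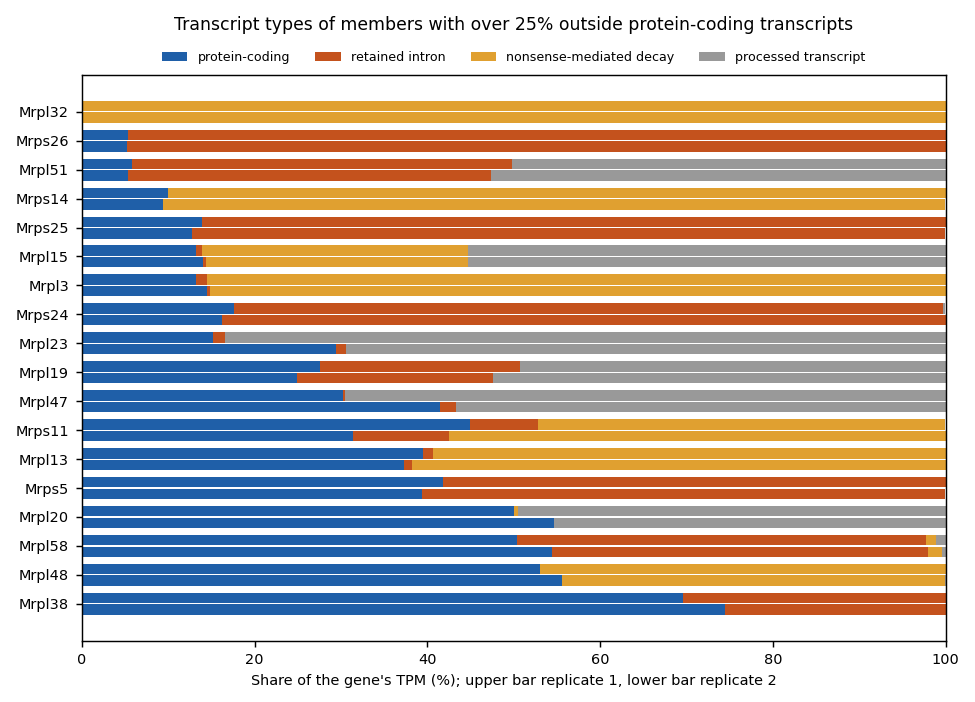
Share of the gene's TPM (percent) by annotated transcript type, for members with over 25% outside protein-coding transcripts, with replicate 1 as the upper and replicate 2 as the lower bar of each gene. Mrpl32, Mrps26 and Mrpl51 are almost wholly outside protein-coding annotation, followed by Mrps14. The bars of a gene resemble each other in both libraries except in Mrpl23, Mrpl47 and Mrps11.

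The genes are spread over 17 autosomes. Chromosome 11 has 11 of them (14.3%, against 7.57% of protein-coding genes) and chromosome 17 has 8 (10.4%, against 4.81%), and X, with 4.38% of protein-coding genes, has none. A protein-coding neighbour that starts within 1000 bases and points away was found for 18 of the 77 (23.4%), against 10.3% of detected protein-coding genes. Of the 18 partners 17 were detected, but the share detected among partners of other genes was not computed. Mrps12 (uS12m, a protein of the decoding centre) stands 172 bases from Sars2, the mitochondrial seryl-tRNA synthetase gene, and Mrpl49 stands 59 bases from Fau, which encodes a cytosolic ribosomal protein. The levels within such pairs could differ widely: Fau had 378 TPM in replicate 1 and 342 in replicate 2 beside Mrpl49 at 52.0 and 50.8, and Sars2 14.4 and 14.1 beside Mrps12 at 99.3 and 99.6. Lrrc46, 153 bases from Mrpl10, was the partner below 1 TPM, with 0.68 in replicate 1 and 0.44 in replicate 2. The genes of these pairs were chosen after their values were seen. By the M21 gene coordinates, Mrps11 and Mrpl46 are a pair of members that start into each other, with 413 bases of overlap (Mrps11 on chr7:78783119-78792989, plus strand, and Mrpl46 on chr7:78775236-78783531, minus strand). This pair is not among the 18, since pairs that overlap at their starts were not counted there. Mrps11 had 48.3 TPM in replicate 1 and 45.4 in replicate 2, and Mrpl46 51.4 and 49.8. An overlap with a detected gene on the other strand was present in 22 members (28.6%), against 19.3% of detected protein-coding genes; whether the counting used strand is not given in the sources used here, so reads of such overlaps cannot be assigned with certainty.

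Near-identical copies made 1 level uncertain. The search used the M21 sequence of each member's leading transcript. A copy with at least 95% identity over at least 50% of that sequence, and with a row of its own, was found for 6 members (Mrpl23, Mrpl27, Mrpl42, Mrpl48, Mrpl53 and Mrps21). The processed pseudogene Mrpl23-ps1 is identical to Mrpl23 over 499 bases, 77.5% of that M21 sequence. The version of this transcript that was quantified had 531 bases. Mrpl23-ps1 was assigned 1566 counts in replicate 1 and 1104 in replicate 2, more than the 586 and 377 given to Mrpl23 itself. The place of Mrpl23 among the 10 lowest members is therefore uncertain. The copies of the other 5 held less than 10% of the member's counts in either library, the most for Mrpl53, where Gm42688 had 120.1 counts in replicate 1 and 80.7 in replicate 2 against 1721 and 1271.

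With expected counts scaled to library size by TMM, 0 of the 77 differed between the libraries by more than 1.5-fold, whereas 10.9% of protein-coding genes with a summed count of 20 or more did. Among the 5522 protein-coding genes at the levels of the members the share was 1.10%, so a count of 0 in 77 lies near that background. The largest ratio of replicate 1 over replicate 2 was 1.17-fold, for Mrpl40 (76.2 TPM in replicate 1, 67.7 in replicate 2), and the smallest 0.865-fold, for Mrps27 (50.4 and 60.3). The median absolute log2 ratio of the members was 0.08, against 0.11 for the 5522 genes. There is no replicate check of a difference between single libraries, so no p-value is given.

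Small shifts leaned to one side. A 95% counting interval that leaves out no difference was found for 24 members on the side of replicate 1 (31.2%, against 19.4% of the 5522 genes) and for 6 on the side of replicate 2 (7.79%, against 36.8%). The median log2 ratio, replicate 1 over replicate 2, was 0.06 for the members and -0.03 for the 5522 genes. These 6 were Mrpl20, Mrpl41, Mrps5, Mrps6, Mrps18c and Mrps27, and the largest on the side of replicate 1 were Mrpl40, Mrpl36 and Mrps15, at log2 ratios of 0.23, 0.22 and 0.21. All of these were chosen after their values were seen. The intervals cover counting error alone. The lean was not confined to the members, of which 52 of 77 (67.5%) were higher in replicate 1, against 40.7% of the 5522 genes. Also higher in replicate 1 were 15 of 21 assembly factors, 4 of 5 subunits with other symbols and 4 of 5 genes of membrane insertion and activation. Other lists of the system did not share the lean. Of these, 3 of 10 translation factors, 6 of 17 synthetases and 5 of 11 mitochondrial RNA genes were higher in replicate 1. Of 76 cytosolic ribosomal protein genes, 74 were higher in replicate 1, with a median log2 ratio of 0.16, as were 11 of 13 mitochondrially encoded mRNAs, with a median of 0.27, while the 80 respiratory chain genes with enough counts had a median of 0.02. The summed TPM of hepatic markers was 178 in replicate 1 and 32.9 in replicate 2, that of erythroid markers 38832 and 32310.1, and that of cardiomyocyte markers 19799 and 21494. The part of these cell types in the shift was not tested.

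**Figure D5:**
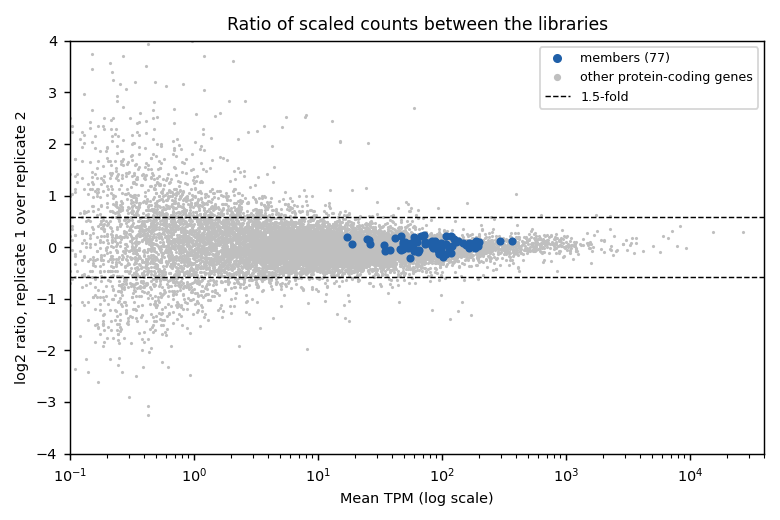
Log2 ratio of scaled counts, replicate 1 over replicate 2, against mean TPM (log axis) for the members (blue) and other protein-coding genes (grey), with dashed lines at 1.5-fold. All 77 members lie between -0.21 and 0.23, well inside the dashed lines, and 53 other genes lie outside the plotted range.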

How the data were processed

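RNA of 2 heart pools was sequenced. Per the file headers, the authors deposited expected counts, TPM and posterior mean TPM per gene and transcript, the percent of each gene's TPM held by a transcript, and interval bounds of TPM, which are treated here as a signal with no stated level. Per the labels' protocols, RNA was extracted with mirVana and spike-in RNAs were added, and a SmartSeq protocol is attached. The deposited README texts name mm10 and annotation M4. For the aligner, the quantifier, their versions and the strand setting, the sources used here give nothing.

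Symbols, types and coordinates were joined by identifier from GENCODE M21 (GRCm38), which has 78 genes matching the rule. Of these, 77 had a row, and Mrpl33 is not analysed here. Of 43346 mouse genes, 42462 matched. The rule for the members used no expression value, but it and all lists were chosen with earlier results of these data known. Levels are means and SD of TPM over the libraries. With 1 group no test between conditions was possible, and the SD measures only the spread between these 2 pools. Expected counts were rounded and scaled by TMM with edgeR 4.0.16 in R 4.3.3, with 0.5 added to each count for ratios. Ratios have exact (Clopper-Pearson) 95% intervals for counting error only. DESeq2 1.42.0 size factors and other settings served as alternatives. The ratio step was checked on simulated data. Copies were searched with BLAST+ 2.17.0. The scripts ran in Python 3.11.15 (pandas 2.3.3, numpy 2.4.6, scipy 1.17.1).

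Named are the 10 highest and 10 lowest members, any under 1 TPM or past 1.5-fold between libraries, the Mrps18 genes, Mrps30 and Mrps36, members led by a transcript not annotated protein-coding, the median member of each subunit, and the 3 highest and the lowest of each other list.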

Additional observations from a re-analysis of the deposited data

How the results depend on the processing

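No paired analysis was possible because there is 1 group. Rescaling TPM to nuclear protein-coding genes raised the median of the members to 114, by construction. In CPM with no length correction, the large over the small subunit came to -0.037 on the log2 scale, members with a bacterial counterpart over mitochondria-specific members to 0.0093, and cytosolic ribosomal proteins over the members to 2.08. The subunits from the universal nomenclature gave 0.24. Within the large subunit the bacterial class exceeded the mitochondria-specific one by 0.11, and within the small subunit by 0.70 (both chosen after seeing the data). Members led by a coding transcript numbered 29 of 36 (80.6%) when only leading transcripts with the same version in M4 and M21 were kept, which leaves fewer genes (also chosen after seeing the data), and 46 of the 55 members that overlap no detected gene on the other strand. Without Mrpl23 the highest count was 5.59 times the lowest in replicate 1 and 5.85 times in replicate 2. With either replicate left out, the median of the members lay between 81.4 and 83.8 TPM, the log2 ratio of the subunits between 0.19 and 0.20, that of the classes between 0.52 and 0.61, that of cytosolic ribosomal proteins between 2.58 and 2.68, and the members led by a coding transcript between 62 and 63. No member passed 1.5-fold with TPM or DESeq2 size factors; dropping the filter on low counts, requiring 10 counts or raising the fold could change nothing, since no member has so few counts and none passed 1.5-fold. Every member had at least 377 counts in either library, and the number of pools, 2, limits how well the SDs are known.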
